A study of Homo sapiens with 8 samples.

Results

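The 4 large clusters of olfactory receptor genes examined here lie in 11p15.4 (1830 kb of chromosome 11 from position 4390001, GRCh37), at the start of 11q (1600 kb of chromosome 11 from 55000001), in 1q44 (1250 kb of chromosome 1 from 247600001) and in 19p13.2 (200 kb of chromosome 19 from 9200001). Their windows are defined by position, not by coverage. The 100 kb of chromosome 11 from 5220001, which hold the beta-globin genes inside the 11p15.4 cluster, were left out. Cut into windows of 5 kb, the clusters gave 956 of the 607271 windows of chromosomes 1 to 22 and X: 346 in 11p15.4, 320 in 11q, 250 in 1q44 and 40 in 19p13.2. Each cluster was compared with up to 1 Mb on either side. The series mapped H3K27me3 by chromatin immunoprecipitation and sequencing in MOLM14, 1 established human acute myeloid leukaemia line, known to carry the FLT3 internal tandem duplication and the KMT2A-MLLT3 fusion, which all groups therefore share. Cells received the FLT3 inhibitor quizartinib (AC220) or its solvent DMSO for 24 h, and Drosophila S2 cells were added before lysis, though whether their reads entered the lists is not stated. A peak list was used for each immunoprecipitate, 2 with DMSO and 2 with AC220, and the 4 inputs were not used here. The question was whether the mark over these clusters differs from that of their surroundings and between treatments.

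Olfactory receptors are G protein-coupled receptors of the nose, and an olfactory neuron expresses a single one of these genes. The genes stand in tandem arrays, were multiplied by local duplication and include many pseudogenes. Class I receptors (families OR51, OR52 and OR56) are the type shared with fish and form the 11p15.4 array, and class II receptors form the other arrays. In olfactory tissue the silent receptor genes are known for the constitutive heterochromatin marks H3K9me3 and H4K20me3. H3K27me3 is instead written by the Polycomb complex PRC2, which is known to favour silent promoters rich in CpG. These genes are not part of the usual programme of blood cells, and their expression in this line was not measured here.

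The promoters of these genes were poor in CpG. In the RefSeq gene table (GRCh38.p14), whose positions were not compared with the peaks, the 4 runs of olfactory receptor genes held 282 genes. Of these, 152 are coding and the rest pseudogenes. The 11p15.4 run, which encloses the beta-globin genes, held 103 (55 coding, all 55 of class I), the 11q run 106 (46 coding), the 1q44 run 56 (43 coding) and the 19p13.2 run 17 (8 coding). A run is an array on that build, ended where the next receptor gene starts more than 500 kb further on. Its ends need not be those of the GRCh37 intervals above, and the 19p13.2 run takes in OR2Z1. Promoters from 250 bases before to 50 bases after the start were matched for 124 of the 152 coding genes. Their median GC content was 36.8%, against 62.7% over 15843 coding promoters, and they held a median of 1 CG dinucleotide against 22. At least 10 CG were present in 2 of the 124 (1.61%), OR2L13 with 24 and OR52N2 with 14, against 73% of all coding promoters. The motif CG, which reads the same on both strands, occurred at least once in 81.5% of the receptor promoters and in 98.1% of all. By array the median GC content was 33.3% in 11q, 37.2% in 1q44, 40% in 11p15.4 and 47.3% in 19p13.2. The other coding genes standing between the receptors had a median GC content of 48% and a median of 5 CG (21 promoters). They include TRIM, SSU72L and zinc finger genes and the beta-globin family gene HBD. SSU72L1 to SSU72L4 held 4 CG each and SSU72L5 held 5, while the zinc finger genes ZNF317 and ZNF558 held 16 and 34. Whether a peak lies on any of these promoters was not determined, because the peaks are on another build.

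To show this composition, a promoter with a GC content nearest the median of its array is printed for each cluster. Genes of the same GC content were taken by symbol. The sequences run 5′ to 3′, come from RefSeq with GRCh38.p14 positions, and have CG dinucleotides in capitals.
OR52A5 (11p15.4, chr11:5138307-5138606, minus strand): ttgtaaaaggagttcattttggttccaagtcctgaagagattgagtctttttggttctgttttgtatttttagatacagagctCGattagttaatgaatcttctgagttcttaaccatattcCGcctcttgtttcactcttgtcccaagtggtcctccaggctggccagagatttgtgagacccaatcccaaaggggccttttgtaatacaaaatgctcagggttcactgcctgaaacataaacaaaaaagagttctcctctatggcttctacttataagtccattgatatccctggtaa
OR4S2 (11q, chr11:55648077-55648376, plus strand): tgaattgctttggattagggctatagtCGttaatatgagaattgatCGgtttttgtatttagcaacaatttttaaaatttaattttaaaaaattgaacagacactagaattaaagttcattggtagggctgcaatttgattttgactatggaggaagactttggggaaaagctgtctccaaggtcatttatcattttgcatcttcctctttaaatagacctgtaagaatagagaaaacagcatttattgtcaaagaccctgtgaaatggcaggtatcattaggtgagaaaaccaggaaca
OR14L1 (1q44, chr1:247616893-247617192, plus strand): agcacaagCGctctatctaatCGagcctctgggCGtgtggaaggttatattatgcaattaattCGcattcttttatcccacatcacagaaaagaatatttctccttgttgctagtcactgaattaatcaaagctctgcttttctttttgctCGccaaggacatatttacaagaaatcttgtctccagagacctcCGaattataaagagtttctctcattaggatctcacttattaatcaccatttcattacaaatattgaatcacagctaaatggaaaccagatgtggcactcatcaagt
OR7G2 (19p13.2, chr19:9107426-9107725, minus strand): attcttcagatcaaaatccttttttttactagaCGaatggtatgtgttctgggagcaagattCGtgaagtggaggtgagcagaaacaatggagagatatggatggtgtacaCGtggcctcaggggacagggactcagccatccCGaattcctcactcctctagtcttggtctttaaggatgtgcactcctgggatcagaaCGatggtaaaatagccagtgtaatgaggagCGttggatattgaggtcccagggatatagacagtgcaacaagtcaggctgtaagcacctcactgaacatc
Of these, OR52A5 is a class I receptor gene and the others belong to class II. The 4 sequences held 2, 2, 6 and 6 CG in the order printed. They stand for GC content rather than for CG number, since the median of CG was 1 in the 11p15.4 and 11q arrays and 2 in the 1q44 and 19p13.2 arrays, and 6 is the highest number in 19p13.2. Other promoters lay as near the median GC content of their arrays. In 1q44 OR1C1, with the same GC content as OR14L1, held 3 CG, and OR14C36 (37%) held 4. In 19p13.2 OR7E24 (48%) held 1. OR14C36 and OR7E24 come earlier by symbol, so the choice between genes on either side of a median was not by symbol.

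Set 1 stands for DMSO 1 with AC220 1, and set 2 for DMSO 2 with AC220 2, after the numbers in the sample titles. Peaks covered 7.63% of the genome in DMSO 1 and 6.32% (AC220 1), and 19.4% (DMSO 2) and 16.3% (AC220 2), so the lists differ more between sets than between treatments. Covered share is the percentage of the bases of a region that lie inside any deposited peak. It is not an amount of mark per cell, and read depth is unknown because the lists hold no counts. The labelled cell type was not checked against marker genes, since no annotation of GRCh37 was used here. The labels do not say that libraries of a treatment came from separate cultures, so the p-values cover library spread of possibly technical origin.

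Together the clusters were covered less than the genome in all 4 libraries. The covered share was 4.13% (DMSO 1), 2.78% (AC220 1), 17.3% (DMSO 2) and 12.9% (AC220 2). These shares are 0.541, 0.44, 0.888 and 0.791 times the genome share of the same libraries. The pooled deficit did not hold for each cluster. In 1q44 the ratio to the genome was 1.02 (DMSO 1), 0.918 (AC220 1), 1.5 (DMSO 2) and 1.59 (AC220 2). In the same order it was 1.07, 0.475, 1.49 and 1.32 in 19p13.2. It was 0.635, 0.497, 1.14 and 0.874 in 11p15.4, and 0, 0, 0.0609 and 0.0123 in 11q. The clusters were far from alike. In DMSO 2 the covered share was 29.2% in 1q44, 29% in 19p13.2, 22.2% in 11p15.4 and 1.18% in 11q. DMSO 1 had 0% in 11q, 4.84% in 11p15.4, 7.78% in 1q44 and 8.16% in 19p13.2. AC220 1 had 0%, 3.14%, 5.8% and 3% in the same order of clusters, and AC220 2 had 0.201%, 14.3%, 25.9% and 21.6%. In every library 11q was the lowest. With DMSO, 1q44 and 19p13.2 were closer to each other than the libraries of a treatment were, and with AC220 1q44 was the higher in both libraries.

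**Figure D1:**
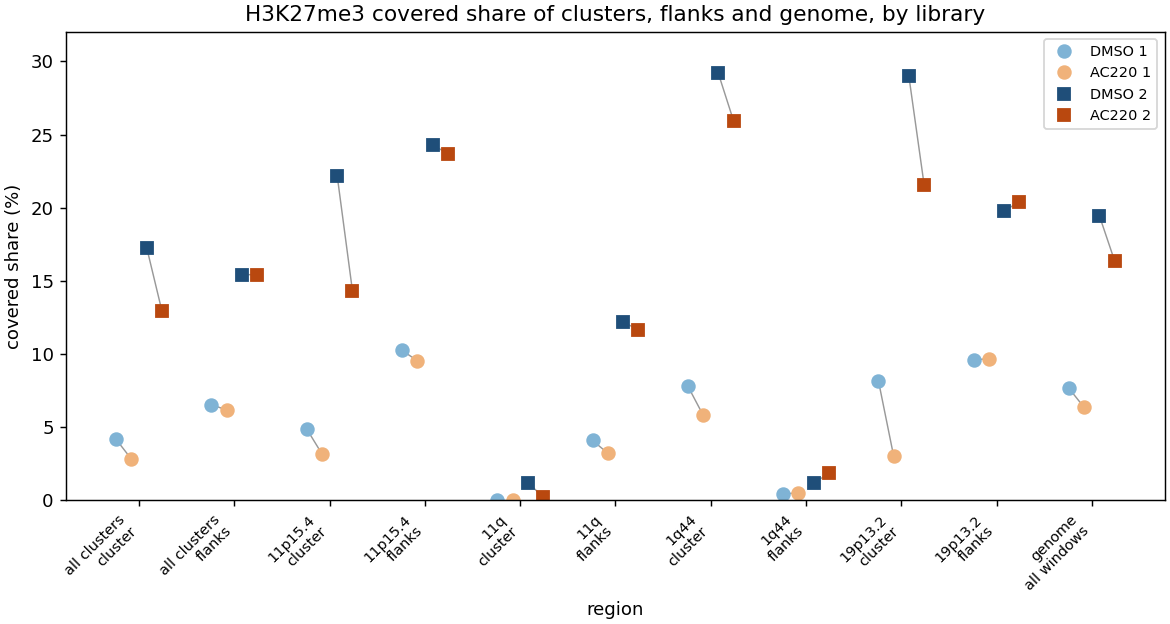
Covered share in percent (vertical axis) of the clusters together, their flanks, each cluster, its flanks and the genome, with 1 point per library; circles are set 1, squares set 2, and grey lines join DMSO to AC220 within a set. The 11q cluster sits at 0% to 1.18%, and the 1q44 cluster at 5.8% to 29.2% stands above its flanks at 0.389% to 1.82%.

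The 11q cluster carried almost no H3K27me3 peak. Of its 320 windows 303 (94.7%) had no peak in any library, against 64.6% of windows genome-wide. Neither library of set 1 had a peak there. DMSO 2 had 15 and AC220 2 had 3. The widest DMSO 2 peak was 3.12 kb (chromosome 11, 56386313 to 56389430), with a deposited fold enrichment of 1.89 over the background of its library and a -log10 q of 1.12, close to the listing limit of 1. AC220 2 had its widest peak, of 1.69 kb, at 56584745 to 56586430, 91.5% of which was also covered in DMSO 2. The longest stretch without a peak in any library ran from 55000001 to 55705000 (705 kb), and further ones of 225 kb (56100001 to 56325000), 205 kb (55875001 to 56080000) and 160 kb (55710001 to 55870000) followed. The first 140 windows belong to the centromeric band q11 and had no peak. In the 180 windows beyond it the covered share was 2.1% (DMSO 2) and 0.357% (AC220 2), so the low coverage was not limited to the centromeric band. Mappability of these repeated genes was not tested. Coverage was higher past the end of the interval, where the next 100 kb were covered over 4.03% (DMSO 1), 2.04% (AC220 1), 26.3% (DMSO 2) and 21.5% (AC220 2).

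The class I cluster in 11p15.4 had its highest coverage in a domain near its start and lower coverage over the rest. The bin of 50 kb from 4.54 to 4.59 Mb was covered over 41.7% (DMSO 1), 25.5% (AC220 1), 94.1% (DMSO 2) and 69.2% (AC220 2). These were the highest values of any 50 kb bin of the 4 clusters in both DMSO libraries and in AC220 1. The widest DMSO 2 peak of all clusters, 34.7 kb at 4534518 to 4569243, lay there and was covered over 46.3% (DMSO 1), 24% (AC220 1) and 80% (AC220 2). AC220 2 had its widest peak of the cluster, 18.1 kb, at 4592849 to 4610974. In set 1 the widest were 8.87 kb in DMSO 1 (4592551 to 4601418) and 4.89 kb in AC220 1 (4580503 to 4585394). From 4.94 to 5.19 Mb AC220 1 had no peak, and DMSO 1 had none outside 1 bin at 0.466%. A second, lower domain lay towards the end, with 12.4% (DMSO 1), 6% (AC220 1), 56.4% (DMSO 2) and 34% (AC220 2) from 6.04 to 6.09 Mb. Between these domains, 105 kb (5640001 to 5745000) had no peak in any library. In the RefSeq gene order the antiviral genes TRIM5, TRIM6, TRIM34 and TRIM22 interrupt the receptor genes between the beta-globin genes and the end of the array, and whether they fill this stretch was not determined. Left of the beta-globin span the cluster was covered over 6.79% (DMSO 1), 4.2% (AC220 1), 25% (DMSO 2) and 17.5% (AC220 2), and right of it over 3.05%, 2.16%, 19.6% and 11.3% in the same order. The beta-globin span itself, whose genes are normally expressed in erythroid cells, was covered over 2.99%, 3.92%, 29.1% and 22.4%.

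**Figure D2:**
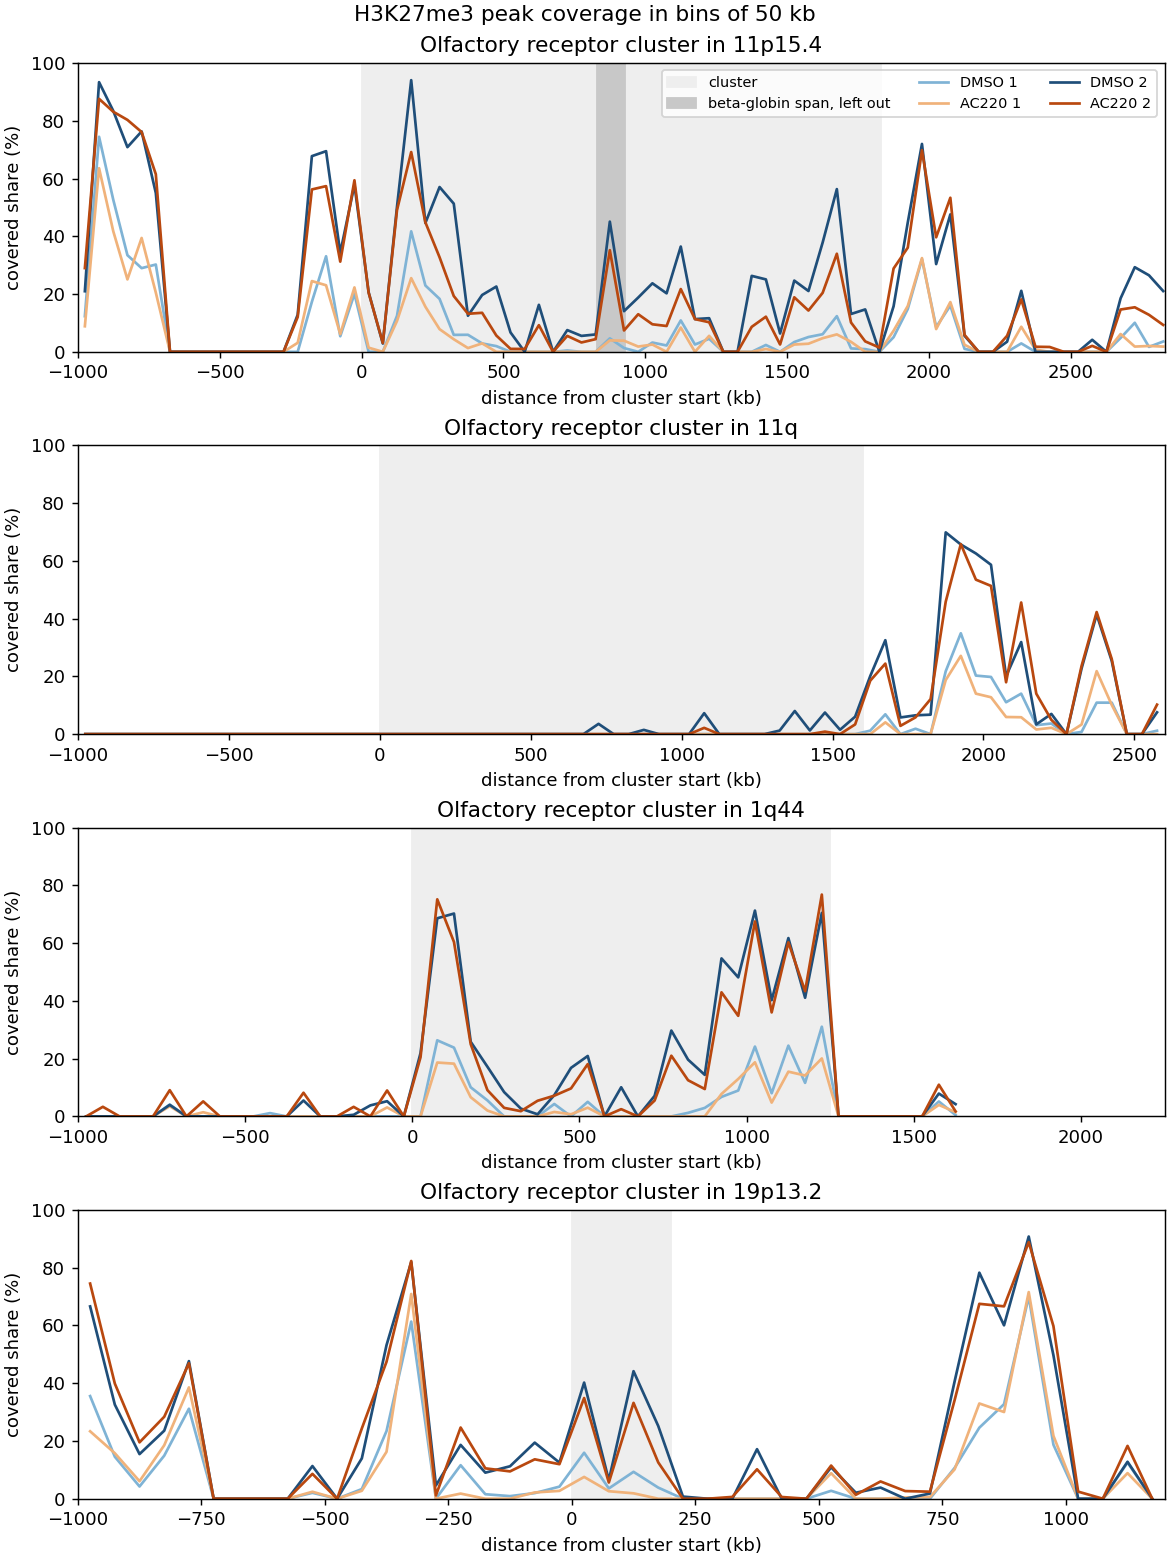
Covered share in percent (vertical axis) in bins of 50 kb against the distance in kb from the start of each cluster (horizontal axis), 1 panel per cluster and 1 line per library; pale grey marks the cluster and darker grey the beta-globin span. The 11q panel is near 0 inside the cluster, and the 1q44 panel is high at both ends of the cluster (up to 76.8% (AC220 2)) and low outside it.

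The 1q44 cluster was a marked region in an almost bare stretch of chromosome. Coverage was highest towards its ends. From 247.65 to 247.7 Mb it was 26.4% (DMSO 1), 18.7% (AC220 1), 68.6% (DMSO 2) and 75.2% (AC220 2), and in the last 50 kb of the cluster 31.1%, 20.1%, 70.5% and 76.8% in the same order. In both bins AC220 2 was above DMSO 2 while AC220 1 was below DMSO 1. The last 100 kb of the cluster were covered over 21.3% (DMSO 1) and 55.8% (DMSO 2), and over 17.1% (AC220 1) and 60.1% (AC220 2). The 100 kb just beyond had no peak in any library. At the other end, the first 100 kb were covered over 13.18% (DMSO 1), 9.33% (AC220 1), 45.3% (DMSO 2) and 47.8% (AC220 2), and the 100 kb outside over 0%, 1.56%, 2.64% and 4.49%. The middle was sparse: from 247.9 to 247.95 Mb neither library of set 1 had a peak and set 2 had 2.71% with DMSO and 1.81% with AC220. The longest run of windows at least 50% covered in both libraries of set 2, in any cluster, lay here at 248580001 to 248620000 (40 kb), with 93.3% (DMSO 2), 81.2% (AC220 2), 30.2% (DMSO 1) and 22.5% (AC220 1). The widest peaks of the cluster were 22.7 kb in DMSO 2 (248597088 to 248619783), 21.5 kb in AC220 2 (247659802 to 247681294), 5.28 kb in DMSO 1 (248599621 to 248604901) and 4.62 kb in AC220 1 (248768655 to 248773269).

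The small 19p13.2 cluster, an array of OR7 and OR1M receptor genes among zinc finger genes, was covered in a similar way to 1q44 with DMSO. Its widest DMSO 2 peak was 9.73 kb (chromosome 19, 9213614 to 9223344), of which 48.7% was covered in DMSO 1, 31.1% (AC220 1) and 64.5% (AC220 2). The last 100 kb were covered over 6.58% (DMSO 1) and 0.936% (AC220 1), and over 34.7% (DMSO 2) and 22.9% (AC220 2). The 100 kb beyond had no peak in 3 libraries and 0.369% (DMSO 2). With 40 windows, single peaks weigh heavily here: AC220 1 had 5 peaks in the whole cluster and DMSO 1 had 10.

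Against their flanks the clusters went in different directions. In 11p15.4 the cluster was covered less than its flanks in all 4 libraries, by a mean of -5.83 ± 2.99 percentage points (SD, n = 4; exact sign-flip permutation test, two-sided, p = 0.13). The difference was -18.4 points with flanks of 0.25 Mb and -17.2 points over windows with a peak in any library alone. Its flanks had 10.2% (DMSO 1), 9.53% (AC220 1), 24.3% (DMSO 2) and 23.7% (AC220 2). In 11q the difference was -7.42 ± 4.40 points, again lower in 4 of 4 libraries (exact p = 0.13). Its size depended on the choice of flanks and peaks, with -15.2 points without centromeric bands in the flanks, -24.9 over windows with a peak alone, -3.39 with flanks of 0.25 Mb, -3.44 with peaks of -log10 q at least 2 and -2.66 with all lists reduced to the shortest. The choice of windows with a peak uses the same coverage that is compared. In the 11q cluster it kept 17 windows, all with peaks in set 2 alone, while 33 flank windows had a peak in all 4 libraries. The left flank of 11q, all of it in centromeric bands, had no peak in any library, and the right flank had 8.12%, 6.38%, 24.4% and 23.2% in the order DMSO 1, AC220 1, DMSO 2, AC220 2. In 1q44 the cluster was covered more than its flanks in 4 of 4 libraries, by 16.2 ± 11.5 points (exact p = 0.13). It was 9.38 points with peaks of -log10 q at least 2 and 5.27 with all lists reduced to the shortest. The ratio of cluster to flanks there was 20, 12, 26.1 and 14.3 in the same order of libraries. The right flank of 1q44 was cut to 401 kb by the chromosome end. In 19p13.2 the direction was split, the cluster being lower in set 1 and higher in set 2 (0.582 ± 6.62 points, exact p = 0.875). With flanks of 0.25 Mb the cluster was higher in 4 of 4 libraries, by 10.5 points (exact p = 0.13), and with all lists reduced to the shortest (-6.92 points) or over windows with a peak alone (-11.4 points) it was lower in 4 of 4 (exact p = 0.13 each). With 4 libraries this test gives no two-sided p under 0.13. For the clusters together the difference was -1.60 ± 2.33 points (lower in 3 of 4 libraries, exact p = 0.25), and without 11q, a choice made after the data had been seen, it was 1.75 points (exact p = 0.75). This pooled value ran from -0.417 points with flanks of 0.25 Mb to -3.29 without centromeric bands, -3.45 with all lists reduced to the shortest and -10.6 over windows with a peak alone. It was -2.74 points without DMSO 2 and -1.01 without AC220 1.

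Pooled over clusters, peaks inside the clusters stood below the middle of their lists by fold enrichment, while by q they differed between clusters. Measured within each list, by the authors' deposited values, the median cluster peak stood at the 36.4th percentile of fold enrichment in DMSO 1, the 38.4th in AC220 1, the 43.4th in DMSO 2 and the 40.3rd in AC220 2. By -log10 q it stood at the 37.5th, 49.2nd, 50th and 46.3th percentile. Within 1q44 it was the 38.7th in DMSO 1, the 67.2nd in AC220 1, the 54.9th in DMSO 2 and the 56.9th in AC220 2, and the 5 AC220 1 peaks of 19p13.2 had a median at the 89.8th. The highest -log10 q of any cluster peak was 3.66, 3.35, 5.02 and 4.10, where the lists reached 17, 17.6, 31.3 and 20.9. Broad peaks of at least 10 kb were absent from the clusters in set 1. In DMSO 2 they made up 12 of 254 cluster peaks (4.72%), against 12.5% of all its peaks, and in AC220 2 they made up 5 of 253 (1.98%), against 7.66%. Peaks with a -log10 q of at least 2 held 11.4% of the covered length of the clusters in DMSO 1 and 19.4% (AC220 1), against 34.2% and 30.3% genome-wide. In set 2 they held 54.1% and 49.8%, against 71.6% and 64.5%. In 19p13.2 they held 42.5% (DMSO 1) and 80% (AC220 1), above the genome, and 53.9% and 40.2% in set 2, below it. In 1q44 they held 9.23%, 28.9%, 65.2% and 67.7% in the order DMSO 1, AC220 1, DMSO 2, AC220 2. In 11p15.4 no AC220 1 peak reached that value, and in 11q 2 peaks did, both in DMSO 2 (-log10 q of 2.36 at 56084692 to 56087083 and of 2.05 at 56532690 to 56533153).

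Coverage of the clusters also depended more on the set than that of the pooled flanks or the genome. In DMSO 2 it was 4.18 times that in DMSO 1, and in AC220 2 it was 4.65 times that in AC220 1, against 2.37 and 2.51 in the flanks and 2.55 and 2.59 genome-wide. This was not particular to the clusters. The ratios were 9.72 and 5.73 in the beta-globin span and 6.52 and 10.5 in the 100 kb past 11q. In the 100 kb before 11p15.4 they were lower, at 3.62 and 3.19. Windows with a peak in both libraries of set 2 and in neither of set 1 made up 12.4% of cluster windows (119 of 956), 6.01% of flank windows and 7.23% of all windows. Windows with a peak in all 4 libraries made up 9.52% (91 windows), against 13.8% in the flanks and 14.4% genome-wide. By cluster this share was 20.4% in 1q44, 10.4% in 11p15.4, 10% in 19p13.2 and 0% in 11q. Windows at least 50% covered in all 4 libraries were 8 of 956 (0.837%), against 3.83% of all windows: 4 in 11p15.4, 3 in 1q44 and 1 in 19p13.2. Among them were 4580001 to 4585000 on chromosome 11 (94% (DMSO 1), 90% (AC220 1), 100% (DMSO 2), 85.7% (AC220 2)) and 248580001 to 248585000 on chromosome 1 (72.6%, 85.4%, 98.4% and 96.7%). No such windows adjoined each other.

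**Figure D3:**
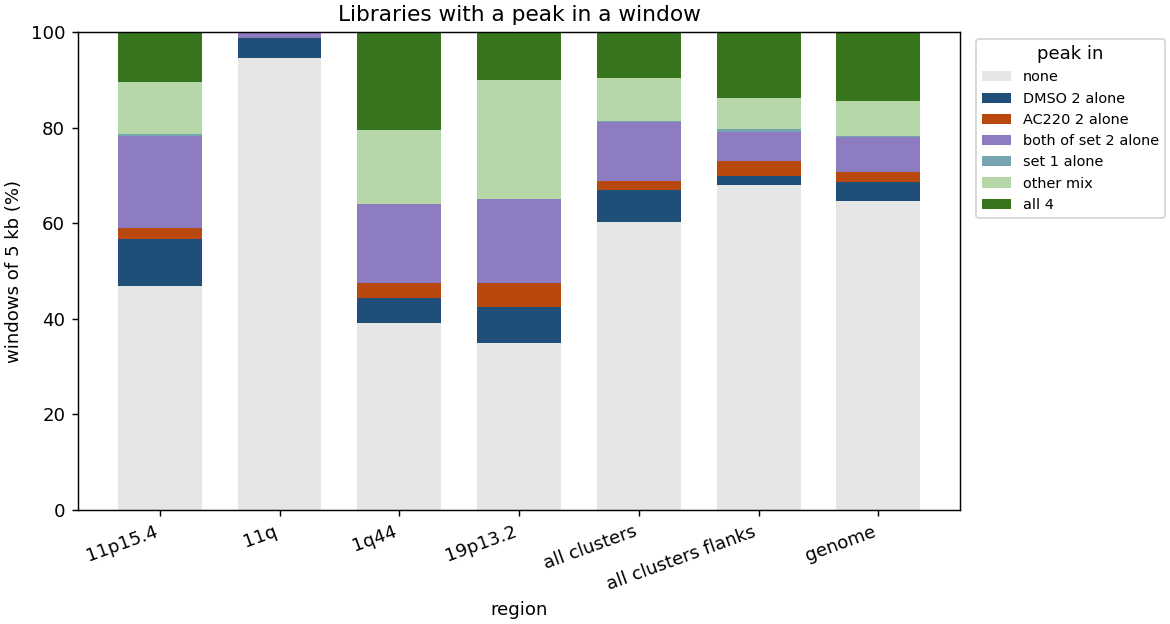
Percentage of 5 kb windows (vertical axis) by the libraries that have a peak in them, for each cluster, the clusters together, their flanks and the genome. Windows with no peak fill 94.7% of 11q and 39.2% of 1q44, and windows with a peak in both libraries of set 2 alone are 12.4% of cluster windows against 7.23% genome-wide.

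Bins of high coverage tended to be the same across libraries, while single bases were shared less. Over 94 bins of 50 kb, Pearson's r between libraries ran from 0.884 (DMSO 2 with AC220 1) to 0.958 (DMSO 1 with AC220 1), as a description of bins of the same 4 clusters, 28 of which had no peak in any library. Within 11p15.4 alone the lowest r was 0.85 (DMSO 2 with AC220 1, 33 bins), and within 11q the only pair with peaks, DMSO 2 with AC220 2, had 0.655 (32 bins). The Jaccard index, shared over joint covered length, was 0.245 for set 1 and 0.524 for set 2 within the clusters, against 0.444 and 0.652 genome-wide. Of the covered length of AC220 1 in the clusters, 49% lay inside DMSO 1 peaks and 90.5% inside DMSO 2 peaks, which cover more.

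With AC220 the clusters were covered less in both sets by the lists as deposited. The covered share was 32.7% lower in set 1 (4.13% (DMSO 1), 2.78% (AC220 1)) and 25.1% lower in set 2 (17.3% and 12.9%). In the flanks it was 5.81% and 0.107% lower, and genome-wide 17.2% and 15.9%. Pooled over sets, the clusters had 10.7% ± 9.29 with DMSO and 7.85% ± 7.17 with AC220 (SD, n = 2 each), a difference of -2.84 points that is smaller than either SD (exact permutation test, two-sided, p = 0.667, where 2 libraries a side allow no p under 0.33). The difference of clusters minus flanks was -0.273 ± 2.99 points with DMSO and -2.92 ± 0.625 with AC220 (exact permutation p = 0.333, n = 2 each), and the treatments differed in it by -0.972 points in set 1 and -4.32 in set 2. With each DMSO list reduced to the covered length of the AC220 list of its number, strongest peaks kept, the clusters had 2.53% (DMSO 1) and 2.78% (AC220 1), and 12.8% (DMSO 2) and 12.9% (AC220 2), so the direction turned. The difference between treatments in clusters minus flanks then was -1.38 points. With peaks of -log10 q at least 2, set 1 turned as well (0.472% (DMSO 1), 0.54% (AC220 1)), and set 2 did not (9.33% (DMSO 2), 6.43% (AC220 2)). Leaving out DMSO 2 or AC220 1 also turned the pooled direction, to 3.72 and 2.23 points, since the sets are then unbalanced.

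By cluster, 11p15.4 had a covered share 35.2% lower with AC220 in set 1 and 35.5% lower in set 2 (pooled 13.5% ± 12.2 and 8.71% ± 7.88, exact permutation p = 0.667, n = 2 each). Its flanks were 6.76% and 2.56% lower. In 11p15.4 the treatment difference of cluster minus flanks was -1.01 points in set 1 and -7.24 in set 2 (exact permutation p = 0.333, n = 2 each). In 1q44 the cluster was 25.5% and 11.1% lower with AC220 (pooled 18.5% ± 15.1 and 15.9% ± 14.2, exact permutation p = 0.667, n = 2 each). Its sparse flanks went the other way, with 0.389% (DMSO 1) and 0.484% (AC220 1), and 1.12% (DMSO 2) and 1.82% (AC220 2). In 19p13.2 the cluster was 63.2% and 25.6% lower (pooled 18.6% ± 14.7 and 12.3% ± 13.1, exact permutation p = 0.667, n = 2 each), while its flanks went from 9.57% to 9.66% within set 1 and from 19.8% to 20.4% within set 2. In 11q set 2 alone had peaks, at 1.18% with DMSO and 0.201% with AC220 (pooled exact permutation p = 1, n = 2 each). With peaks of -log10 q at least 2, 1q44 had 0.718% (DMSO 1) and 1.68% (AC220 1), higher with AC220, and 19% (DMSO 2) and 17.6% (AC220 2). By the same filter 11p15.4 and 19p13.2 stayed lower with AC220 in both sets. They had 0.385% and 3.47% (DMSO 1), 0% and 2.40% (AC220 1), 10.1% and 15.6% (DMSO 2), and 4.09% and 8.67% (AC220 2). With the DMSO lists reduced as above, 1q44 was higher with AC220 in both sets (4.81% against 5.8%, and 23.7% against 25.9%), while 11p15.4 and 19p13.2 went in opposite directions between sets.

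**Figure D4:**
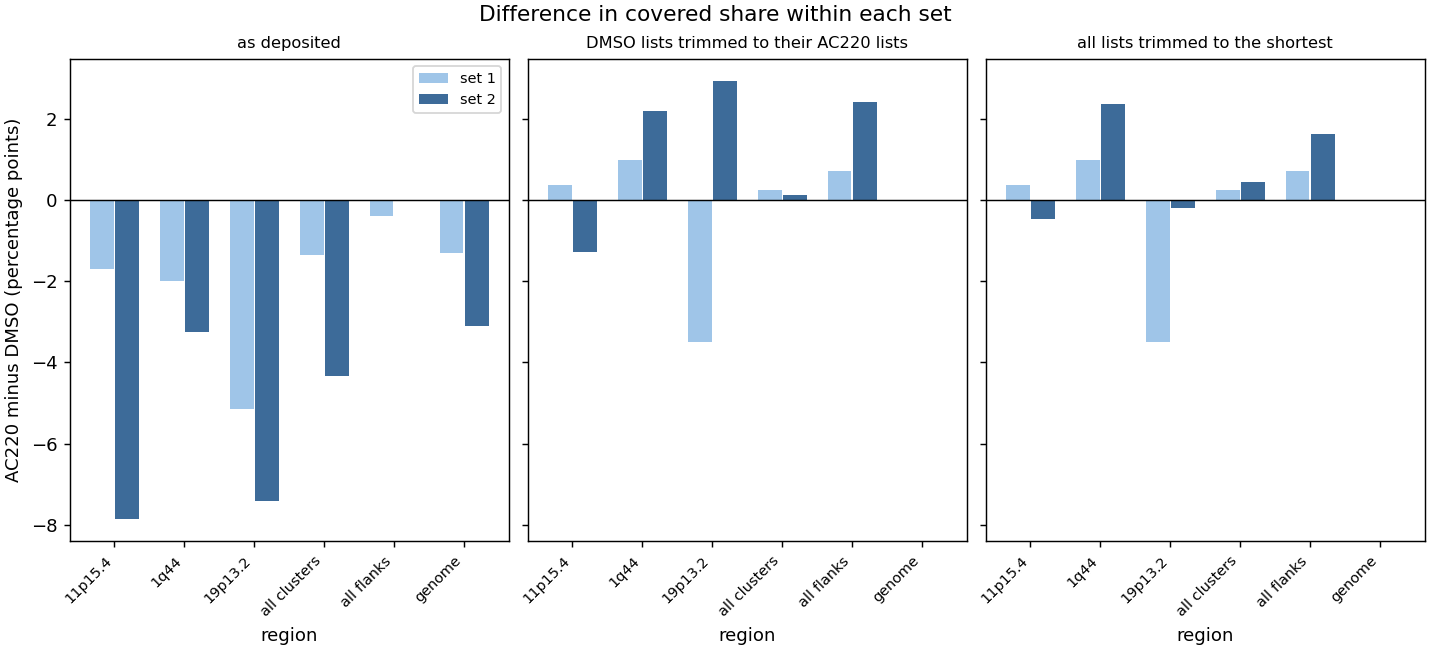
AC220 minus DMSO covered share in percentage points (vertical axis) within set 1 (pale bars) and set 2 (dark bars) for 3 clusters, the clusters together, their flanks and the genome; panels show the lists as deposited, the DMSO lists reduced to the length of their AC220 lists, and all lists reduced to the shortest. As deposited every cluster bar is below 0 (for the clusters together -1.35 and -4.34), and with reduced lists the clusters together are slightly above 0.

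In bins of 50 kb, 30 of 94 cluster bins (31.9%) were covered less with AC220 in both sets, where the percentage called genome-wide by this rule was 23.1%, and 1 bin (1.06%) was covered more in both, against 5.54% genome-wide. The lower bins were 16 of 33 in 11p15.4, 10 of 25 in 1q44, 4 of 4 in 19p13.2 and 0 of 32 in 11q, where set 1 has no peak. In windows of 5 kb the members were close to the background: 69 of 956 (7.22%) were lower in both sets, against 6.9% genome-wide, and 20 (2.09%) were higher, against 2.47%. Windows in which both DMSO libraries lay above both AC220 libraries were 16 (1.67%), against 1.55% genome-wide, and windows with both AC220 libraries above both DMSO libraries were 4 (0.418%), against 0.562%. With a separation of at least 25 percentage points 1 window was called lower with AC220 (0.105%, against 0.0883% genome-wide) and 0 higher (0.0171% genome-wide). The called window lay in 11p15.4 (chromosome 11, 4670001 to 4675000) and was covered over 38.6% (DMSO 1), 38.1% (DMSO 2), 0% (AC220 1) and 5.54% (AC220 2). Just below the threshold, 5460001 to 5465000 on the same chromosome was covered over 22.1% (DMSO 1) and 45.8% (DMSO 2) and had no peak with AC220. Pooled over all clusters, 11q included, these window counts are near the shares of the genome.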

How the data were processed

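H3K27me3 was mapped in MOLM14 cells by chromatin immunoprecipitation and sequencing, and the titles give treatment and number. The authors deposited a broad peak list per immunoprecipitate, with no pooling of libraries apparent. The submitters' processing notes name BWA 0.7.10-r789 and MACS2 2.1 but no settings. No label states the build: contig names and ends matched GRCh37 (highest end on chromosome 1 249236554, length 249250621). Positions are printed counting from 1. The deposited fold enrichment is a ratio over the background of a library, and the deposited p and q are -log10 values. The deposited score follows 10 times the -log10 q as a whole number and was not used. The lists hold no counts, so depth is unknown and no interval is given. Covered shares were computed in numpy 2.4.6 and pandas 2.3.3 under Python 3.11.15, bands came from circlize 0.4.16 (R 4.3.3), and figures from matplotlib 3.10.9. Treatments were compared by an exact permutation test over the 6 assignments of libraries, and clusters with flanks by an exact sign-flip test over libraries. The window rule and coverage code were tested on simulated lists. Named regions are the 4 clusters, their flanks, the widest peak of each library per cluster, the longest runs covered in all or in no library and the called windows; the strongest 50 kb bins, the runs covered in set 2, the 11q peaks past a -log10 q of 2, the window just under the threshold and the promoter analysis were chosen after the data had been seen. Members and lists were chosen with earlier results of these data known. Alternatives changed the peak filter, the length of the lists, the flanks, the window and the libraries. The planned comparison of receptor genes with other genes by peaks at their starts was not run, for want of a GRCh37 annotation here.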

Additional observations from a re-analysis of the deposited data

How the results depend on the processing

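Of 137 comparisons under an alternative other than leaving out a library, 110 kept their direction or stayed within 1.5 times of a count. The rule also held a threshold for p, but it lay below the smallest p these tests allow (0.13 and 0.33) and could not be crossed. The 110 include replicate blocks, which keep the mean by construction. They also include flanks without centromeric bands in 11p15.4, 1q44 and 19p13.2, whose flanks hold no such bands. The treatment difference of covered share turned with the lists of equal length for the clusters together (0.346 points) and for 1q44 (1.68), and with the DMSO lists reduced to their AC220 lists (0.185 and 1.60); in 11q it was 0 with equal lists. Cluster minus flanks turned in 19p13.2 with peaks of -log10 q at least 2 (-3.12 points), of fold at least 2 (-0.195), equal lists (-6.92), reduced DMSO lists (-1.47) and covered windows alone (-11.4), and for the clusters together without 11q (1.75). The treatment difference of cluster minus flanks turned in 11q with equal lists (-0.548), reduced DMSO lists (-1.04) and covered windows alone (-6.33), and in 1q44 with equal lists (1.58) and reduced DMSO lists (0.975). With equal lists the 11q cluster had 0% in every library, so its value came from the flanks alone. Of the covered 11q windows 13 had a peak in DMSO 2 alone, 4 in both libraries of set 2 and 0 in AC220 2 alone. That filter therefore favoured a lower value with AC220 in the cluster. The cause of these turns was not tested.

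Leaving out 1 library at a time, the treatment difference ranged from -9.41 to 3.72 points for the clusters together, -13.4 to 3.87 in 11p15.4, -1.08 to 0.1003 in 11q, -13.3 to 8.09 in 1q44 and -16.7 to 4.12 in 19p13.2. Cluster minus flanks ranged from -2.30 to 2.995 in 19p13.2, turning without DMSO 2, and kept its direction in 11p15.4 (-7.05 to -4.64), 11q (-8.83 to -6.09), 1q44 (12.3 to 19.9) and for the clusters together (-2.74 to -1.01). Its treatment difference ranged from -3.89 to 4.35 in 11q and -13.4 to 7.32 in 1q44, and stayed negative in 11p15.4 (-5.74 to -2.52), in 19p13.2 (-12 to -1.34) and for the clusters together (-4.76 to -0.53). Windows called lower ranged from 1 to 92 and higher from 0 to 22, with 92 lower without DMSO 1, 34 lower without AC220 2, 22 higher without AC220 1 and 7 higher without DMSO 2. The share of all windows called was not computed with a library left out. These counts therefore cannot be set against the genome and say nothing particular to the clusters.

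With the number as a replicate block the mean differences are the same by construction. For the clusters together they were -2.84 points between treatments (exact sign-flip p = 0.5, the smallest that 2 pairs allow). They were -1.60 points against the flanks and -2.65 points for the difference of both (exact sign-flip p = 0.5). With no smaller p possible, the block could change no call of these. Within both numbers 5 windows were lower and 1 higher by 25 points. By any amount 69 were lower (7.22%, against 6.9% genome-wide) and 20 higher (2.09%, against 2.47%). For 25 points within both numbers the share of all windows was not computed. The labels do not say that a number marks a shared culture or day, so the libraries share only a number. Windows called lower were 0 at 10 kb, with equal lists and with reduced DMSO lists, and 9 with a separation of 10 points; windows called higher were 3 with equal lists and 1 with 10 points. Of 478 windows of 10 kb, 241 (50.4%) had no peak in any library. The shares of all windows at 10 kb, at 10 points and with the shortened lists were not computed. Those counts therefore cannot be set against the genome. Depth is unknown, so what it limits cannot be stated.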
